A study of Homo sapiens with 21 samples.

Results

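The AP-1 genes examined here were JUN, JUNB, JUND, FOS, FOSB, FOSL1, FOSL2, ATF3, BATF3 and MAFF. Their members are the ATAC-seq sites whose nearest gene, in the deposited annotation, is one of these 10 genes, which gave 48 of the 367900 consensus sites. All 48 passed the filter on low counts and were among the 357029 sites tested. FOSL2 held 10 sites, FOS and BATF3 8 each, ATF3 7, MAFF 5, JUN 4, FOSB and FOSL1 2 each, and JUNB and JUND 1 each. Being nearest to a gene does not show that a site acts on it.

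Accessibility was profiled in SK-N-BE(2), an established human neuroblastoma line, 72 h after lentiviral delivery of short hairpin RNAs (shRNAs). In ATAC-seq, the Tn5 transposase cuts open DNA and leaves sequencing adapters, so that reads pile up over accessible sites. All groups shared this line and the lentiviral transduction. The 7 groups of 3 libraries were Control, which received a non-silencing shRNA, shARID1A.2 and shARID1A.4 against ARID1A, shARID1B.2 and shARID1B.3 against ARID1B, and the combinations shARID1A/B.2.3 and shARID1A/B.4.2 against both genes. ARID1A and ARID1B are alternative subunits that hold the BAF chromatin remodelling complex together. The comparisons ask where accessibility at AP-1 genes depends on each subunit and on both. The material was a transduced population of 1 line, and fewer cells with an open site cannot be told apart from a site that is less open in every cell.

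AP-1 is a family of dimeric transcription factors whose subunits pair through a basic leucine zipper (bZIP). JUN proteins pair with each other or with FOS proteins, whereas FOS proteins need a partner, and ATF3, BATF3 and MAFF are related bZIP proteins that join or compete with such dimers. FOS, FOSB, JUN, JUNB and ATF3 are textbook immediate early genes, switched on within minutes of growth factor or stress signals. AP-1 dimers bind the TPA response element (TRE, TGACTCA or TGAGTCA) or the cyclic AMP response element (CRE, TGACGTCA), often in enhancers, where they are known to work together with BAF complexes. The search used the looser pattern TGANTCA, which also takes TGAATCA and TGATTCA. In what follows, TRE stands for any match of that looser pattern.

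Libraries held 16140029 to 44472230 reads in sites. The share of those reads in sites annotated as promoters was 19.98 to 20.58% in Control, 20.92 to 24.14% with single shRNAs and 23.37 to 25.06% with the combinations. Levels are given as CPM, the reads at a site scaled to a common library size by TMM. Sites nearest to the start of 8 adrenergic neuroblastoma genes ran from 2.05 CPM at TH to 59.8 CPM at HAND2 over all libraries. Those of 5 mesenchymal genes ran from 9.23 CPM at PRRX1 to 42.6 CPM at TWIST1, and that of a sixth, RUNX1, from 0.458 to 1.52 CPM. Among markers of other cell types, PTPRC stood at 0.786 to 1.98 CPM and ALB at 0.0481 to 0.528 CPM, whereas EPCAM reached 12.5 and CD3E 14.6 CPM. Not all of these nearest sites lie at a start. Their distances were -2490 bases at PTPRC, -8831 at ALB, 359 at EPCAM and -2648 at CD3E, and -5125 at ISL1 among the adrenergic genes. Accessibility does not measure RNA and so does not check the silencing. The site nearest to the ARID1A start ran from 5.14 to 7.99 CPM in Control and from 6.72 to 10.5 CPM in silenced libraries, and that of ARID1B from 37.3 to 42.6 and from 40.3 to 53.8 CPM.

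The sequences on which the results below turn are given first, from GRCh38 and read on the plus strand unless stated. Capitals mark every match of TGANTCA or TGACGTCA, patterns that find the same places when either strand is searched. The first is part of the site 7.9 kb upstream of the ATF3 start, which closed most. Its 2 TREs lie 251 and 304 bases from the middle of the site, and the second is the looser TGATTCA. The next is the middle of the site 41.8 kb upstream of FOSL2, which also closed and holds neither motif.
ATF3 7.9 kb upstream, chr1:212600977-212601276: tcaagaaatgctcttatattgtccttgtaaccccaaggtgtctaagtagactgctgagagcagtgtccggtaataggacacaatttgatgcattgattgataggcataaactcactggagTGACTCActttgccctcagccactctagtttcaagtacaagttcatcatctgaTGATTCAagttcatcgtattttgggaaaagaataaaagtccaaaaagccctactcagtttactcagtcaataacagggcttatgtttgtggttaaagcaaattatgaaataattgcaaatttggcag
FOSL2 41.8 kb upstream, chr2:28352341-28352640: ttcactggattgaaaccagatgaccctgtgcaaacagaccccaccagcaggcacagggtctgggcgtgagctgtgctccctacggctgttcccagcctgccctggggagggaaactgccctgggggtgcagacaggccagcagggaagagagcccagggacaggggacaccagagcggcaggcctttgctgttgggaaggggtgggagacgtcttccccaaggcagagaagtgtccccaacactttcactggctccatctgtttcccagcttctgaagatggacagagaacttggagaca
The next pair are the middle stretches of the sites 28.7 kb downstream of JUN and 11.9 kb upstream of FOSB, which hold TREs and which differed both between the shRNAs against ARID1B and between the combinations. The site 41.2 kb upstream of FOS, not printed, also differed in both contrasts and holds neither motif.
JUN 28.7 kb downstream, chr1:58755265-58755564: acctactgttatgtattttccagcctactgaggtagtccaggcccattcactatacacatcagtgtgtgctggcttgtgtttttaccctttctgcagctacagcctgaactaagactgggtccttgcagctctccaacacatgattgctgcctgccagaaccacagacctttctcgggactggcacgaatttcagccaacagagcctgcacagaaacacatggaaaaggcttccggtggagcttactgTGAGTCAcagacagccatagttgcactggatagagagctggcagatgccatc
FOSB 11.9 kb upstream, chr19:45455903-45456202: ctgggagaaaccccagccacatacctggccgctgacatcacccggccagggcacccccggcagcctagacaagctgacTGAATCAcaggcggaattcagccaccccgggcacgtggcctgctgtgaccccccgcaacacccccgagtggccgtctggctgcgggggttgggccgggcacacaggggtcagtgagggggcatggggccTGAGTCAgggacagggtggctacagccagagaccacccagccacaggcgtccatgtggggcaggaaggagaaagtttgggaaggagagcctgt
The last pair are the 250 bases before the RefSeq start (GRCh38.p14) of JUND, whose start site opened most, and of MAFF, each with 1 CRE, at 192 and 46 bases before the start. The JUND stretch is read on the minus strand.
JUND promoter, chr19:18281623-18281872: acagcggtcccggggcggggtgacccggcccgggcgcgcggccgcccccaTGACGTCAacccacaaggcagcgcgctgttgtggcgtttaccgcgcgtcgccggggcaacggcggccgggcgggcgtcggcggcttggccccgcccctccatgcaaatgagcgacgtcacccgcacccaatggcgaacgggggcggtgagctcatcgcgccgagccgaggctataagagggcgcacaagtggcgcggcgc
MAFF promoter, chr22:38201744-38201993: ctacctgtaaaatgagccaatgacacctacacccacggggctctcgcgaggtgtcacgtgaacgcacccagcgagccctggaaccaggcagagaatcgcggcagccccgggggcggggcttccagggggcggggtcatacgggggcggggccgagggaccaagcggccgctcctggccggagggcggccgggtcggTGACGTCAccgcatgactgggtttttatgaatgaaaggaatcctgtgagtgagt

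For each gene, the tested site nearest to its annotated transcription start was taken as its start site. These 10 sites lay within 2378 bases of the start, were 1710 to 4539 bases long and had a GC content of 61.1 to 71.1%. The other 38 sites lay up to 48.5 kb away, with a GC content of 42.1 to 64.7%. By the annotation, 23 of the 48 were intergenic, 13 intronic, 7 exonic and 5 at promoters. The median Control level was 31.5 CPM at start sites and 1.1 CPM at the others, of which 16 lay under 1 CPM in Control.

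Start sites of all 10 genes were open in Control cells. Per kb of site, the ATF3 start site was the most accessible at 26.1 CPM per kb (25.1 to 27.8 over the 3 libraries), followed by FOSL2 at 19.8 CPM per kb (17.2 to 21.3). FOS (11.8 CPM per kb), JUN (11.2) and JUND (10.3) came next, and each overlapped its neighbour in this order. MAFF (7.34 CPM per kb), JUNB (6.92) and BATF3 (6.3) formed a further run of overlapping levels. FOSL1 (4.46 CPM per kb) and FOSB (4.13) were the least accessible and overlapped each other.

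After silencing of both genes, AP-1 start sites were more accessible, whereas the other called sites split between losses and gains. The contrast of both combinations with Control, with the edgeR quasi-likelihood test and a false discovery rate (FDR) under 0.01 over all tested sites, called 12 of 48 AP-1 sites opened (25.0%) and 5 closed (10.4%). Over all sites the shares were 3.43% opened and 10.3% closed, so that the closed share was near that of the background. All 5 closed sites and 4 of the opened ones were among the 38 sites other than the start site of their gene, called distal below. Of such sites in the whole table, 10.6% closed and 1.93% opened. Among these opened sites, those 12.7 kb downstream of MAFF and 19.3 kb upstream of FOS span GENCODE starts of other genes. The other 8 opened sites were start sites, 8 of 10, against 28.5% of the start sites of 20196 genes, 5.05% of which closed. The median log2 change was 0.15 over the 48 sites and 0.03 over all tested sites.

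**Figure D1:**
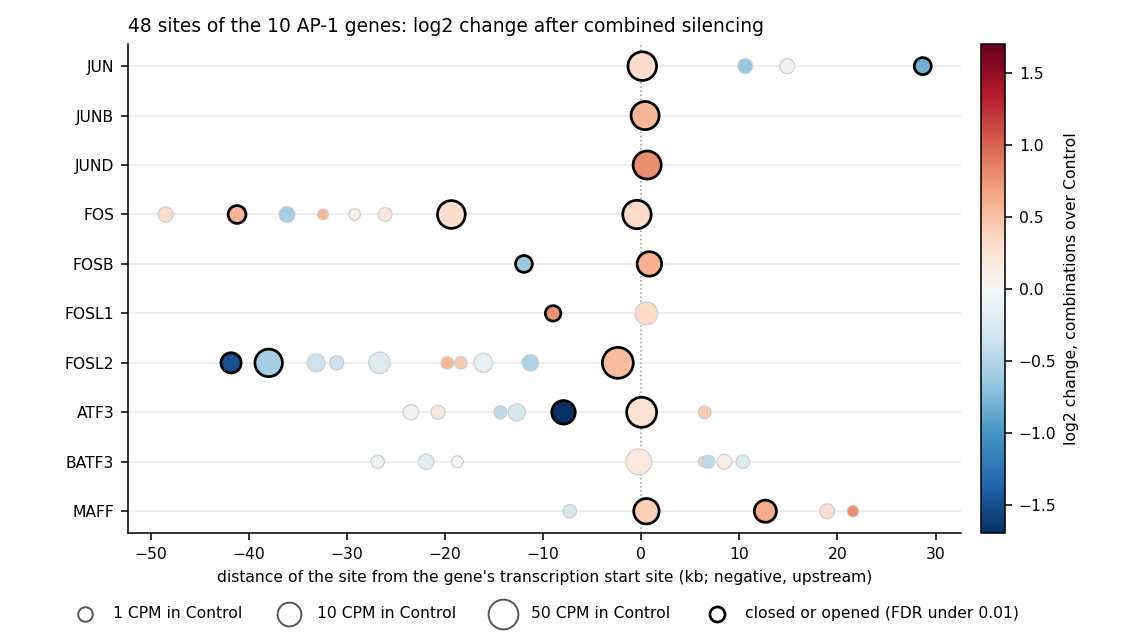
Each circle is 1 of the 48 sites, placed by its distance from the transcription start of its gene (kb, x axis) and coloured by the log2 change of both combinations over Control. The area rises with the Control level in CPM and black rims mark sites called at an FDR under 0.01. The start sites near 0 are all coloured as higher, from 0.16 to 0.79, and the strongest falls lie 7.9 kb upstream of ATF3 and 41.8 kb upstream of FOSL2.

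Among the JUN genes, whose proteins can pair with themselves, the start site of JUND rose most. JUND (chr19:18279513-18282577, over its only exon) stood at 31.6, 29.1 and 34.1 CPM in the Control libraries. It reached 56.7, 51.9 and 51.0 CPM in the shARID1A/B.2.3 libraries, and 55.5, 54.9 and 56.7 CPM in those of shARID1A/B.4.2. All 18 silenced libraries, single shRNAs included, lay above every Control library. The rise after combined silencing was 0.79 ± 0.08 on the log2 scale (SE), or 1.72-fold (FDR = 1.82e-13), and 1.02% of the start sites of all genes rose by as much or more. The site also spans the microRNA gene MIR3188.

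JUNB, a JUN protein with weaker activating capacity, stood at 35.2, 25.8 and 33.2 CPM in Control, against 49.9, 40.5 and 44.5 CPM in the shARID1A/B.2.3 libraries, and 50.4, 45.4 and 48.2 CPM in those of shARID1A/B.4.2. The combinations did not overlap Control, and the log2 change was 0.57 ± 0.09 (SE, FDR = 7.63e-08). This site is 4539 bases long and spans the start of the neighbouring gene HOOK2 as well. JUN, the founding member of the family, rose least of the 3, from 36.5 ± 1.03 CPM in Control (SD, n = 3) to 43.2 ± 2.66 and 47.1 ± 1.41 CPM with the combinations, by 0.31 ± 0.07 on the log2 scale (SE, FDR = 9.56e-04). Of the 18 silenced libraries, 17 lay above every Control library at JUN. The JUN site also spans GENCODE starts of LINC01135 and of another long non-coding RNA gene.

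Of the FOS genes, which encode the obligate partners of JUN proteins, 3 start sites opened. FOSB rose from 12.4, 9.94 and 13.3 CPM in Control to 18.7, 15.3 and 18.3 CPM in the shARID1A/B.2.3 libraries, and 18.8, 17.6 and 19.6 CPM in those of shARID1A/B.4.2. The groups did not overlap and the log2 change was 0.60 ± 0.10 (SE, FDR = 4.68e-07). FOSL2, which encodes FRA2, stood at 77.8, 62.7 and 76.0 CPM in Control. It reached 97.5, 75.9 and 93.3 CPM with shARID1A/B.2.3, which overlapped Control although each was higher than its own number, and 123, 119 and 121 CPM with shARID1A/B.4.2, which did not. Its log2 change over both combinations was 0.52 ± 0.08 (SE, FDR = 2.12e-08). The FOS start site rose by 0.33 ± 0.08 (SE, FDR = 0.00135), from 34.3 ± 5.08 CPM in Control to 38.4 ± 4.95 and 48.3 ± 2.67 CPM (SD, n = 3). FOSL1, which encodes FRA1, was measured at 7.63 ± 1.39 CPM in Control and 8.87 ± 1.11 and 10.5 ± 0.751 CPM with the combinations, and its log2 change of 0.34 ± 0.11 did not pass (FDR = 0.022).

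ATF3, a stress-induced bZIP factor, had a start-site level of 54.6 ± 2.99 CPM in Control, 58.4 ± 2.83 CPM with shARID1A/B.2.3 and 71.7 ± 2.33 CPM with shARID1A/B.4.2 (SD, n = 3), a log2 change of 0.25 ± 0.07 (SE, FDR = 0.00622). MAFF, a small MAF protein without an activation domain, went from 16.1, 12 and 17.3 CPM in Control to 19.2, 14.1 and 19.2 CPM and to 23.2, 22.5 and 24.0 CPM with the combinations, by 0.41 ± 0.10 (SE, FDR = 0.00102). The values with shARID1A/B.2.3 overlapped Control at both genes, although each library lay above the Control library of its own number, by 3.7 to 4.0 CPM at ATF3 and 1.9 to 3.1 CPM at MAFF. BATF3, known for its role in dendritic cell development, was at 16.7 ± 1.54 CPM in Control and 17.2 ± 1.79 and 20.3 ± 1.4 CPM with the combinations, which was not called (log2 change 0.16 ± 0.09, FDR = 0.22). None of the 8 BATF3 sites was called by edgeR in any of the 15 contrasts computed, and 16 of their 120 site-by-contrast tests had an unadjusted p under 0.05. No share over all sites is given at that limit, here or below.

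**Figure D2:**
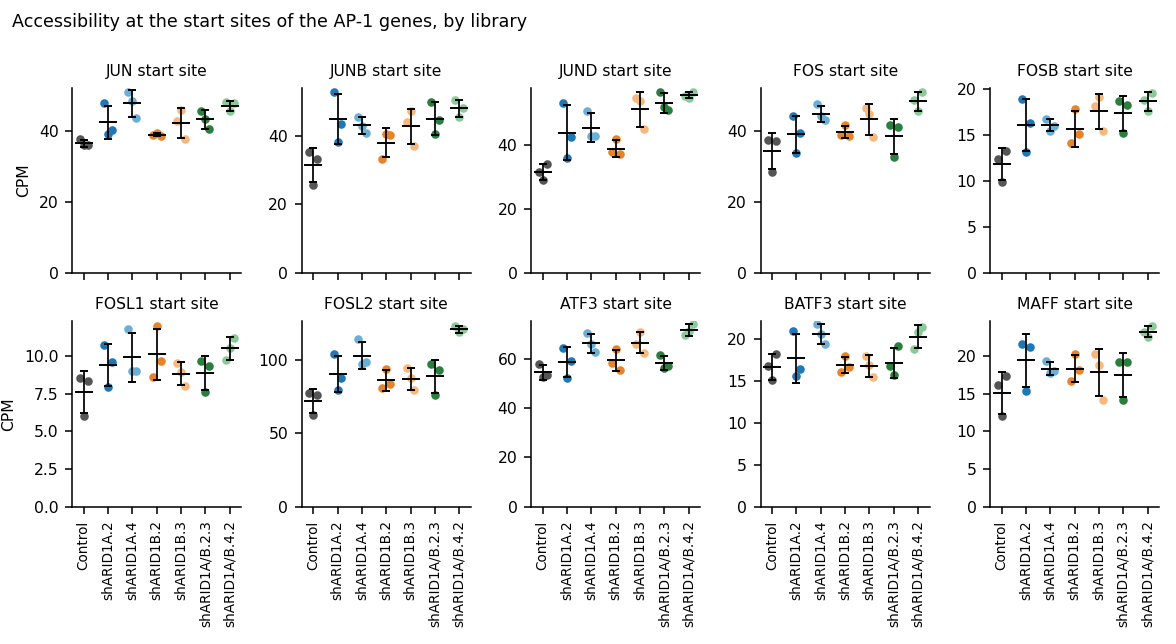
Points are the CPM of single libraries (y axis, from 0) in the 7 groups (x axis) at the start site of each of the 10 genes, with the mean and SD of 3 libraries in black. The JUND panel shows all 18 silenced libraries above Control, and shARID1A/B.4.2 has the highest mean in 8 of the 10 panels.

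The rise at start sites was shared by start sites at large. The median log2 change of the 10 AP-1 start sites was 0.37 after combined silencing, against 0.21 over the start sites of all genes. The same pair of medians was 0.33 and 0.17 after ARID1A silencing and 0.27 and 0.11 after ARID1B silencing. The change was above 0 at all 10 start sites in each of the 6 silenced groups, although these comparisons share the Control libraries. Control replicate 2, which had the lowest promoter share of all libraries (19.98%), gave the lowest Control value at 9 of the 10 start sites.

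How many start sites opened depended on how the libraries were scaled. With TMM computed on promoter sites only, which moved the median of all tested sites to -0.20, 4 of the 10 remained opened, the median of the 10 was 0.14 and BATF3 fell below 0 at -0.07. Over all 48 sites the split was then 10 closed and 5 opened, in place of 5 and 12. With offsets fitted to site abundance 5 AP-1 start sites opened and ATF3 stood at -0.06, and with offsets fitted to GC content 6 opened. Shares over all sites or all start sites are not given for these scalings. These counts are therefore given without a background beside them, and the shares of the main fit do not apply to them. JUND (0.54 to 0.79), FOSB (0.37 to 0.61) and JUNB (0.33 to 0.57) were called under each of these 4 scalings. FOSL2 was not called with abundance offsets (0.14, FDR = 0.0449). The promoter share of reads moved with this result, and its part in it was not tested.

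**Figure D3:**
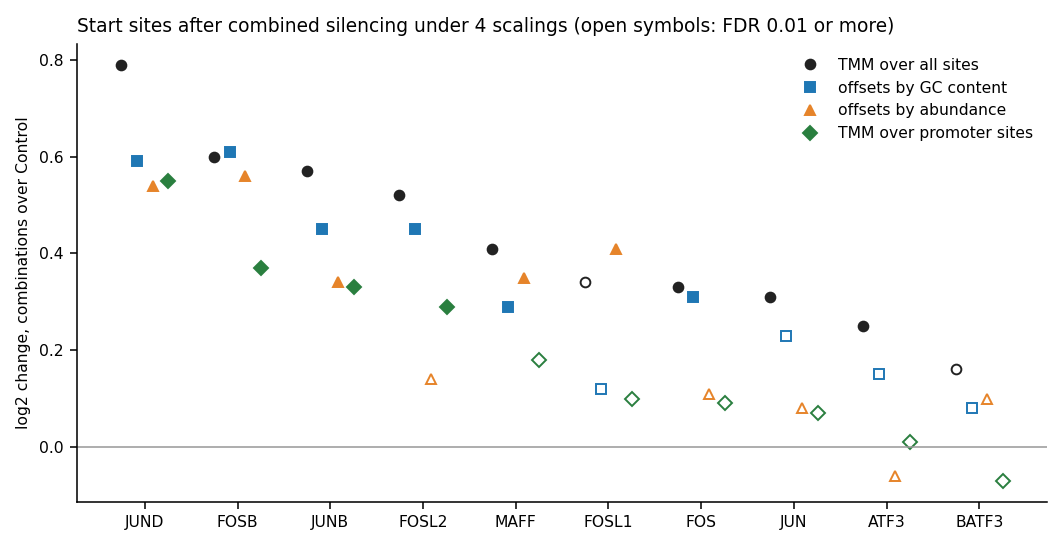
The log2 change of both combinations over Control (y axis) is drawn for the 10 start sites under 4 ways of scaling the libraries, with filled symbols for an FDR under 0.01. JUND, FOSB and JUNB are filled under each scaling, whereas ATF3 and BATF3 reach values just below 0.

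The strongest change at any AP-1 gene was a loss of accessibility inside ATF3. The site 7.9 kb upstream of the nearest ATF3 start (chr1:212600112-212601580, in intron 1 of 3 of the annotated ATF3 transcript) stood at 9.29, 8.51 and 10.1 CPM in Control. It fell to 2.72, 2.32 and 2.24 CPM in the shARID1A/B.2.3 libraries, and to 3.67, 3.59 and 2.83 CPM in those of shARID1A/B.4.2. The log2 change was -1.7 ± 0.11 (SE, FDR = 6.56e-24), or 0.308 of the Control level. Every silenced library of any group lay below every Control library. Only 0.725% of all tested sites had a log2 change as low or lower. This is the site whose 2 TREs are printed above.

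Each single shRNA closed this ATF3 site as well, by -1.07 ± 0.13 and -1.05 ± 0.13 for shARID1A.2 and shARID1A.4, by -0.69 ± 0.13 for shARID1B.2 and by -1.50 ± 0.13 for shARID1B.3 (SE, FDR from 3.78e-17 to 3.75e-05). It lay 0.62 ± 0.09 lower on the log2 scale with the combinations than with single shRNAs (FDR = 7.36e-08). The other 5 distal ATF3 sites were not called after combined silencing, at -0.46 to 0.45, while the ATF3 start site was opened.

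FOSL2 lost accessibility at its 2 farthest upstream sites. The intergenic site 41.8 kb upstream (chr2:28352271-28352710) stood at 4.38, 3.08 and 4.93 CPM in Control, and at 1.67, 1.12 and 1.36 CPM in the shARID1A/B.2.3 libraries, and 1.43, 1.29 and 2.04 CPM in those of shARID1A/B.4.2. All 18 silenced libraries were lower than all Control libraries, and the change was -1.49 ± 0.15 (SE, FDR = 1.32e-13). It was called closed with each single shRNA too, at -0.74 to -1.11. The intergenic site 38 kb upstream (chr2:28355418-28357227) was far more accessible, at 27.7, 22.8 and 30.6 CPM in Control. It fell to 16.8, 12 and 16.4 CPM with shARID1A/B.2.3, clear of Control, and to 22.8, 20.6 and 22.2 CPM with shARID1A/B.4.2, whose highest library reached the lowest Control library at this rounding. The averaged change was -0.58 ± 0.09 (SE, FDR = 4.68e-08), made of -0.85 ± 0.10 (FDR = 3.58e-11) with the former and -0.30 ± 0.10 (FDR = 0.0248, not called) with the latter. The remaining 7 distal FOSL2 sites were not called, with values from -0.52 to 0.57.

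The last 2 closed sites rested on shARID1A/B.2.3. The site 28.7 kb downstream of JUN (chr1:58754998-58755831, intergenic in the deposited annotation and within a GENCODE long non-coding RNA gene) stood at 1.88, 1.77 and 2.08 CPM in Control, at 0.821, 0.534 and 1.01 CPM in the shARID1A/B.2.3 libraries, and at 1.52, 1.52 and 1.67 CPM in those of shARID1A/B.4.2. Its averaged change was -0.82 ± 0.20 (SE, FDR = 7.62e-04), with -1.35 ± 0.24 (FDR = 3.12e-06) for the first combination and -0.28 ± 0.22 (FDR = 0.465) for the other. The site 11.9 kb upstream of FOSB (chr19:45455682-45456423) lies in intron 1 of 8 of ERCC1, a DNA repair gene. It stood at 1.88, 1.52 and 2.08 CPM in Control, 0.919, 0.627 and 0.747 CPM in the shARID1A/B.2.3 libraries, and 2.15, 1.52 and 1.90 CPM in those of shARID1A/B.4.2. The first combination lay wholly below Control (-1.28 ± 0.23, FDR = 4.05e-06), whereas the other overlapped it (0.02 ± 0.20, FDR = 0.963), and the average just passed (-0.63 ± 0.19, FDR = 0.0085). The call at the FOSB site was lost in 6 of 9 fits that each left out a library and with DESeq2, and that at the JUN site without Control replicate 3.

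Of the 4 opened sites other than start sites of the 10 genes, the one 9.0 kb upstream of FOSL1 (chr11:65909164-65909818, intergenic) rose most in the averaged contrast, by 0.77 ± 0.19 (SE, FDR = 0.0014). It stood at 1.30, 0.986 and 1.60 CPM in Control and at 3.14, 2.67 and 3.25 CPM with shARID1A/B.4.2, but at 2.13, 1.25 and 1.63 CPM with shARID1A/B.2.3, which overlapped Control. The site 12.7 kb downstream of the MAFF start, over the last MAFF exon and a GENCODE start of PLA2G6 (chr22:38213855-38215323), rose from 7.70, 4.52 and 7.86 CPM to 10.1, 7.48 and 10.4 CPM in the shARID1A/B.2.3 libraries, and 11.8, 12.7 and 11 CPM in those of shARID1A/B.4.2, by 0.65 ± 0.12 (SE, FDR = 1.09e-05). The shARID1A/B.4.2 libraries lay clear of Control, whereas those of shARID1A/B.2.3 lay 2.4 to 2.96 CPM above the Control library of the same number but overlapped the group.

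The intergenic site 41.2 kb upstream of FOS (chr14:75237122-75238072) rose by 0.58 ± 0.15 (SE, FDR = 0.0024). It stood at 2.55, 1.97 and 2.45 CPM in Control, 2.53, 1.97 and 3.34 CPM in the shARID1A/B.2.3 libraries, and 4.66, 5.48 and 4.17 CPM in those of shARID1A/B.4.2. Of the combinations, the latter alone lay clear of Control. Each single-shRNA group also lay wholly above Control, and 16 silenced libraries lay above every Control library. The fourth, 19.3 kb upstream of FOS (chr14:75258657-75260218), was named after its values were seen. It spans GENCODE starts of 2 long non-coding RNA genes, had 28.8 ± 2.97 CPM in Control, and rose by 0.29 ± 0.08 (SE, FDR = 0.00463). Without Control replicate 2 the count of opened AP-1 sites fell from 12 to 6, losing both of these FOS sites, the FOSL1 site and the FOS, ATF3 and MAFF start sites. No share over all sites is given for that fit.

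**Figure D4:**
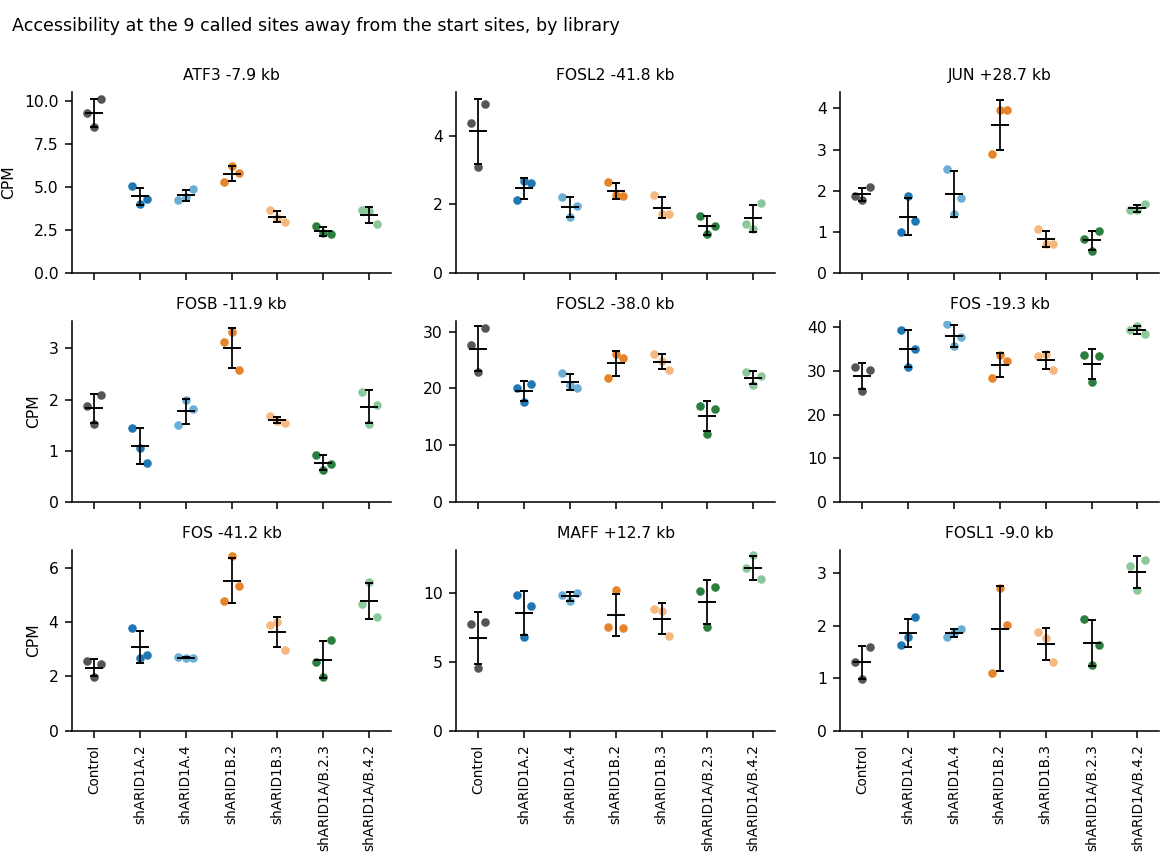
Points are the CPM of single libraries (y axis, from 0) in the 7 groups at the 5 closed and 4 opened sites other than the start site of their gene, with the mean and SD of 3 libraries in black. At the ATF3 and upper FOSL2 sites every silenced group lies below Control, whereas at the JUN and FOSB sites shARID1B.2 lies above Control and shARID1A/B.2.3 below it.

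The 29 distal sites that were not called had log2 changes from -0.65 to 0.81, 17 of them below 0 and 12 above. Over all 38 distal AP-1 sites the median change was -0.09, beside 0.02 over all such sites in the table.

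Taken one at a time, the combinations differed in which AP-1 sites they moved. With shARID1A/B.2.3, 7 AP-1 sites closed and 5 opened, where 10.4% of all sites closed and 2.85% opened. The closed ones were the 5 above, the site 36.1 kb upstream of FOS (-0.86 ± 0.24, FDR = 0.00452) and that 33.1 kb upstream of FOSL2 (-0.62 ± 0.18, FDR = 0.00861), both named after their values were seen. Same-numbered libraries of Control and this combination deviated together, and with the replicate number as a block in a fit of these 2 groups, added after seeing the data, the same 7 sites closed and 8 opened in place of 5 (12.8% and 5.48% of the 328819 sites in that fit). The 3 added were the start sites of JUN (0.24, FDR = 2.95e-06), FOS (0.16, FDR = 0.00381) and MAFF (0.21, FDR = 0.00822). That of ATF3 was still not called (0.09, FDR = 0.0676). With shARID1A/B.4.2, 2 closed, at ATF3 and FOSL2, and 13 opened, where 7.37% of all sites closed and 3.97% opened. The opened sites were 9 start sites, all except that of BATF3, and the 4 distal sites above. No share over the start sites of all genes is given for either combination alone. In the averaged contrast 28.5% of the start sites of all genes opened. A direct contrast of the combinations found 9 AP-1 sites lower with shARID1A/B.2.3 (18.8%, against 3.79% of all sites). None was higher, against 1.43% of all sites. At an unadjusted p under 0.05, for which no share of all sites is given, 17 were lower and 1 higher. Of the 9 called sites, 4 were start sites, and no share over start sites alone is given for this contrast. Start sites at large also rose less under shARID1A/B.2.3, at a median log2 change over Control of 0.13, beside 0.29 for the other combination. The 10 AP-1 start sites had medians of 0.23 and 0.55 in the same order. The part of this wider shift in the 9 calls was not tested.

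Those 9 were the distal sites of FOSB (-1.30 ± 0.23, FDR = 1.17e-05), JUN (-1.07 ± 0.25, FDR = 0.00149), FOS 41.2 kb upstream (-0.92 ± 0.16, FDR = 7.55e-06), FOSL1 (-0.88 ± 0.19, FDR = 6.47e-04) and FOSL2 38 kb upstream (-0.55 ± 0.10, FDR = 4.60e-05), and 4 start sites. The start sites were those of FOSL2 (-0.45), MAFF (-0.42), FOS (-0.34) and ATF3 (-0.30), with SEs from 0.08 to 0.11 and FDR from 6.05e-05 to 0.00904. The start sites of JUND, JUNB, FOSB and FOSL2 were opened with both combinations.

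ARID1A silencing, as the mean of its 2 shRNAs, closed 3 AP-1 sites and opened 7, where 5.37% of all sites closed and 1.67% opened. The closed sites were those of ATF3 (-1.06 ± 0.11, FDR = 3.54e-13) and FOSL2 41.8 kb upstream (-0.92 ± 0.15, FDR = 1.54e-06) and 38 kb upstream (-0.41 ± 0.09, FDR = 2.12e-04). The opened ones were the start sites of JUND (0.50), JUNB (0.48), FOSB (0.44), FOSL2 (0.42) and JUN (0.30) and the distal sites of MAFF (0.45) and FOS 19.3 kb upstream (0.34). With promoter-based scaling 3 closed and 3 opened, and without Control replicate 2 the counts were also 3 and 3. Shares over all sites are not given for these fits. For the main fit, the opened share over the start sites of all genes is not given either, and their median log2 change was 0.17.

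ARID1B silencing closed 2 AP-1 sites and opened 4, where 3.53% of all sites closed and 1.39% opened. The ATF3 site (-1.10 ± 0.11, FDR = 4.64e-14) and the FOSL2 site 41.8 kb upstream (-0.95 ± 0.15, FDR = 5.34e-07) closed. JUND (0.50 ± 0.08), FOSB (0.49 ± 0.10) and JUNB (0.36 ± 0.09) start sites opened, as did the FOS site 41.2 kb upstream (0.96 ± 0.15, FDR = 5.74e-07). Without Control replicate 2, 2 closed and 2 opened, without a share of all sites beside them. For the main fit, the opened share over the start sites of all genes is not given, and their median log2 change was 0.11. In the direct contrast of ARID1A with ARID1B silencing, 3 AP-1 sites differed (6.25%, against 4.74% of all sites), all lower after ARID1A silencing. They were the FOSB site 11.9 kb upstream (-0.66 ± 0.15, FDR = 7.39e-04), the FOS site 41.2 kb upstream (-0.65 ± 0.12, FDR = 1.48e-05) and the FOSL2 site 38 kb upstream (-0.27 ± 0.07, FDR = 0.00598).

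Single shRNAs called 7 AP-1 sites with shARID1A.2 (5.38% of all sites called in either direction), 10 with shARID1A.4 (6.45%), 4 with shARID1B.2 (3.18%) and 9 with shARID1B.3 (8.0%). Shares over the start sites of all genes are not given for single shRNAs. JUND, JUNB and FOSB start sites were opened with each of them except shARID1B.2, where JUND had 37.9, 42.0 and 37.2 CPM, still above every Control library (0.30 ± 0.09, FDR = 0.0343). No AP-1 site differed between shARID1A.2 and shARID1A.4 by the edgeR test, where 2.57% of all sites did. Of the 48, 9 had an unadjusted p under 0.05, a limit without a share of all sites beside it.

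The shRNAs against ARID1B disagreed at AP-1 genes. Compared with shARID1B.2, shARID1B.3 left 6 AP-1 sites lower and 1 higher, against 4.25% and 2.96% of all sites. The widest gap was at the site 28.7 kb downstream of JUN, which stood at 2.89, 3.95 and 3.96 CPM with shARID1B.2 and at 1.06, 0.699 and 0.714 CPM with shARID1B.3, a log2 difference of -2.11 ± 0.21 (SE, FDR = 1.07e-13). Control libraries lay between the groups without overlap, so that the site was called opened by one shRNA (0.91 ± 0.19, FDR = 6.31e-04) and closed by the other (-1.20 ± 0.23, FDR = 3.60e-05). The FOSB site was at 3.13, 3.33 and 2.58 CPM with shARID1B.2, above Control, and at 1.67, 1.58 and 1.55 CPM with shARID1B.3 (-0.90 ± 0.18, FDR = 1.44e-04). The FOS site 41.2 kb upstream was highest with shARID1B.2 too, at 4.78, 6.43 and 5.34 CPM, against 3.88, 4.01 and 2.98 CPM with shARID1B.3 (-0.57 ± 0.15, FDR = 0.00323).

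Further lower sites with shARID1B.3 were ATF3 12.7 kb upstream (-1.20 ± 0.19, FDR = 6.62e-07), ATF3 7.9 kb upstream (-0.80 ± 0.14, FDR = 4.05e-06) and FOSL2 33.1 kb upstream (-0.63 ± 0.17, FDR = 0.00687). The JUND start site was the 1 site that was higher (0.40 ± 0.09, FDR = 8.59e-04). Among these libraries, shARID1B.3 held 23104850 to 44472230 reads in sites and shARID1B.2 held 18001445 to 21634157, and the part of depth in these gaps was not tested.

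**Figure D5:**
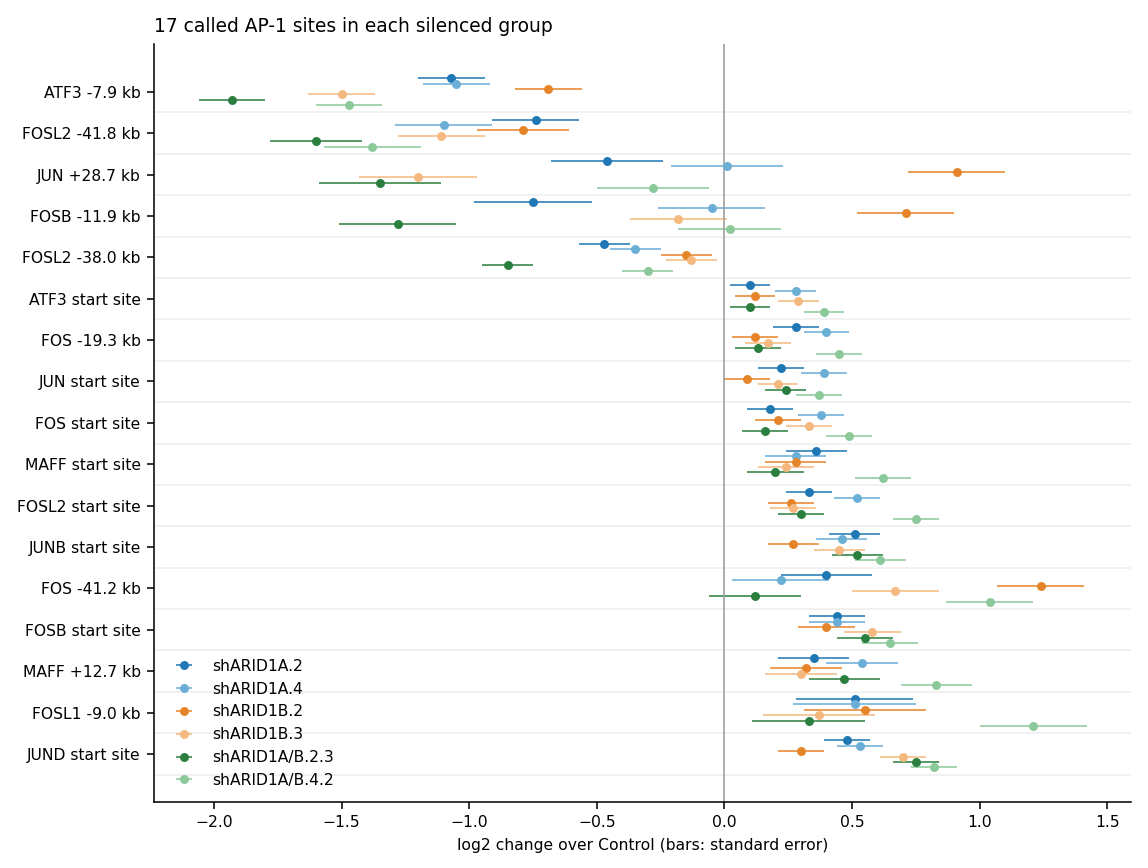
The log2 change over Control (x axis, bars are the SE) is drawn for the 17 called AP-1 sites in each of the 6 silenced groups, which share the Control libraries. The 6 groups spread from -1.35 to 0.91 at the site 28.7 kb downstream of JUN and from -1.28 to 0.71 at the site 11.9 kb upstream of FOSB. At each of the other called sites they lie on 1 side of 0.

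The contrast of both combinations with the mean of the 4 single-shRNA groups called 5 sites lower (10.4%, against 6.85% of all sites) and 1 higher (2.08%, against 0.969%). The lower ones were the sites of JUN 28.7 kb downstream (-0.63 ± 0.15), ATF3 (-0.62 ± 0.09), FOSB (-0.56 ± 0.14), FOSL2 41.8 kb upstream (-0.55 ± 0.13) and FOSL2 38 kb upstream (-0.30 ± 0.06), with FDR from 7.36e-08 to 0.00157. The higher one was the JUND start site (0.28 ± 0.05, FDR = 4.83e-05). A difference from this mean does not place the combinations beyond each single shRNA. Against Control, the JUN site stood at -0.28 with shARID1A/B.4.2 and at -1.20 with shARID1B.3 alone, and shARID1B.2 raised the mean at 0.91. The FOSB site stood at 0.02 with shARID1A/B.4.2, at -0.75 with shARID1A.2 and at 0.71 with shARID1B.2. At the ATF3 site shARID1A/B.4.2 (-1.47) and shARID1B.3 (-1.50) lay within their SE of 0.13 of each other. At the FOSL2 site 38 kb upstream shARID1A/B.4.2 stood at -0.30 and shARID1A.2 at -0.47. By the edgeR test no AP-1 site departed from additivity, the change in the combinations being set against the added single changes (smallest FDR = 0.0473), where 0.516% of all sites did. At an unadjusted p under 0.05, 9 lay below the sum and 1 above, without a share of all sites to set beside them. No other tool was run on this contrast.

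The AP-1 motif was counted in the sites of AP-1 genes and in all tested sites, as a description without a test. The middle 300 bases of 5 of 48 AP-1 sites held a TRE (10.4%), and those of 10.6% of all tested sites did. Searched over whole sites, 12 of 48 held one (25.0%, beside 28.4%). The 5 with a central TRE were FOSB 11.9 kb upstream, JUN 28.7 kb downstream, FOSL2 33.1 kb upstream, ATF3 20.7 kb upstream and BATF3 18.7 kb upstream, and the first 2 of these closed. At the BATF3 site the match was the looser TGATTCA. In the whole table, 13.8% of sites with a central TRE closed and 1.8% opened, beside 9.83% and 3.62% of sites without one. No AP-1 site held a CRE in its middle 300 bases, but the start sites of JUND, FOSB and MAFF each held 1 elsewhere, 3 of 10, beside 3.74% of all start sites. These 3 opened after combined silencing, as did 54.5% of all start sites with a CRE and 27.5% of those without. Of the 10 genes, 8 matched the RefSeq promoters, with 10 promoter stretches of 300 bases (250 before and 50 after the start). A CRE was present in 2 of the 10, those of JUND and MAFF printed above, and in 1.85% of all 35116 promoters. A TRE was present in 1 of the 10, that of FOSL2, and in 7.71% of all.

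Genes around AP-1 were read from 4 lists, with the same contrast and calls. Of 328 sites at 24 dimer partners and related bZIP genes, 55 closed (16.8%) and 22 opened (6.71%), with a median log2 change of -0.04. CREB5 alone held 20 of the closed sites among its 40, the lowest at -1.47 (FDR = 3.19e-20). The lowest site of MAF, a large MAF factor, was at -1.94 (FDR = 4.28e-26), that of BACH2, a repressor that pairs with small MAF proteins, at -1.51 (FDR = 1.34e-23), and that of JDP2, a JUN-binding repressor, at -0.93 (FDR = 1.30e-11).

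Of 157 sites at 16 upstream kinases and ternary complex factors, which carry signals to FOS and JUN, 25 closed (15.9%) and 14 opened (8.92%). The median log2 change of this list was -0.02. The lowest sites of MAPK8, which encodes the JUN kinase JNK1, and of ELK3, a ternary complex factor, stood at -1.89 (FDR = 3.84e-16) and -1.34 (FDR = 9.68e-21). Of 121 sites at 6 negative regulators 19 closed (15.7%) and 7 opened (5.79%), with a median log2 change of -0.15. DUSP6, an ERK phosphatase, held 8 of the closed ones, the lowest at -1.63 (FDR = 5.63e-18). Of 194 sites at 17 known AP-1 target genes 12 closed (6.19%) and 9 opened (4.64%), with a median log2 change of 0.05. The lowest of these sites stood in CD44, a hyaluronan receptor, at -1.88 (FDR = 7.10e-30). The closed share of the first 3 lists lay above the 10.3% of all sites and that of the target genes below it, and the opened share of all 4 lay above the 3.43% of all sites. The single sites named from the lists are the lowest of their genes, the highest are not given, and they do not stand for their lists. The lists were not tested as sets. DUSP1 was in the lists of targets and of negative regulators.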

How the data were processed

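ATAC-seq reads were aligned to GRCh38 per the labels. For the aligner, the peak caller and any Tn5 shift of reads, nothing is given in the sources used here. Raw read counts for every library over 1 consensus set of 367900 sites were deposited by the authors, each site with a HOMER annotation. The authors' normalized counts, log2 ratios and adjusted p-values in those tables, from DESeq2, were not used. Testing used edgeR 4.0.16 (R 4.3.3), namely its quasi-likelihood test on these counts after TMM scaling and filterByExpr (minimum count 10), which left 357029 sites and removed 10871. All 21 libraries entered 1 fit of 7 groups without covariates, and p-values were adjusted by Benjamini-Hochberg over all tested sites, with calls at an FDR under 0.01. The SE of a log2 change came from the test statistic. Levels in CPM carry an SD over 3 libraries.

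Replicates differed by more than counting noise (chi-square per degree of freedom 1.082 to 2.503) and were counted separately. Same-numbered libraries deviated together, with every correlation over 0.1, in 1 of 21 pairs of groups, Control and shARID1A/B.2.3 (r = 0.194, 0.506 and 0.207). No source says what a number shares. The procedure was tested on simulated data. Sequences were read from GRCh38 and from RefSeq promoters. Alternatives were other scalings, filters, thresholds, offsets, DESeq2 1.42.0, a replicate block and leaving out libraries.

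The members and gene lists were chosen with earlier results of these data known. Named sites were each gene's start site, up to 10 falls and 5 rises that were largest among called sites, sites departing from the sum of single changes, and otherwise the site with the smallest p. Others are marked as named after their values were seen. Depth was 16140029 to 44472230 reads in sites, so that sites under 1 CPM rest on few reads.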

Additional observations from a re-analysis of the deposited data

Results flagged for a closer look

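Between the 2 shRNAs against ARID1B, 7 AP-1 sites differed by the edgeR test of the difference itself, although both shRNAs were set against the same Control. As shARID1B.3 minus shARID1B.2, the log2 differences were -2.11 at the site 28.7 kb downstream of JUN, -1.20 and -0.80 at the sites 12.7 and 7.9 kb upstream of ATF3, -0.90 at the site 11.9 kb upstream of FOSB, -0.63 at the site 33.1 kb upstream of FOSL2, -0.57 at the site 41.2 kb upstream of FOS and 0.40 at the JUND start site. At the JUN site the effects had opposite signs, with both called.

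Between the 2 combinations, 9 AP-1 sites differed by the same kind of test. As shARID1A/B.2.3 minus shARID1A/B.4.2, the log2 differences were -1.30 at the site 11.9 kb upstream of FOSB, -1.07 at the site 28.7 kb downstream of JUN, -0.92 at the site 41.2 kb upstream of FOS, -0.88 at the site 9.0 kb upstream of FOSL1 and -0.55 at the site 38 kb upstream of FOSL2. At start sites they were -0.45 at FOSL2, -0.42 at MAFF, -0.34 at FOS and -0.30 at ATF3. The median rise over start sites of all genes was also smaller under shARID1A/B.2.3, and its part in these differences was not tested. All 9 were lower with shARID1A/B.2.3, and the effects against Control had opposite signs at the FOSB site alone, where that of shARID1A/B.4.2 was 0.02 and not called.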

How the results depend on the processing

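The fall 7.9 kb upstream of ATF3 (-1.77 to -1.64) and that 41.8 kb upstream of FOSL2 (-1.67 to -1.33) stayed called without any 1 library, as did the JUND rise (0.72 to 0.84). A further limit of 1 on the log2 change left 2 closed and 0 opened AP-1 sites after combined silencing, 4 changed with shARID1A/B.2.3, 4 with shARID1A/B.4.2, 1 each after ARID1A and ARID1B silencing and 0 between combined and single silencing. No shares over all sites are given at this limit. Promoter-based scaling gave 10 closed and 5 opened after combined silencing and 6 changed after ARID1A silencing. The splits of closed and opened sites it gave were 10 and 3 with shARID1A/B.2.3, 5 and 8 with shARID1A/B.4.2, and 3 and 3 after ARID1B silencing. Shares over all sites under this scaling are not given, so these counts have no background beside them. The ATF3 start site turned to -0.06 with abundance offsets and that of BATF3 to -0.07 with promoter-based scaling. The causes of these shifts were not tested, except that a limit on size can only remove calls.

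Leaving out 1 library at a time gave 3 to 6 closed (3 without Control replicate 3) and 6 to 13 opened AP-1 sites (6 without Control replicate 2) after combined silencing. It gave 8 to 10 changed with shARID1A/B.2.3, 14 to 15 with shARID1A/B.4.2, 6 to 12 after ARID1A silencing and 4 to 8 after ARID1B silencing (6 and 4 without Control replicate 2, where opened sites went from 7 to 3 and from 4 to 2 while closed sites kept their counts of 3 and 2), and 5 to 8 between combined and single silencing. With the replicate block, the same 17 sites were called after combined silencing, 5 closed and 12 opened. A block within Control and shARID1A/B.2.3 only, added after seeing the data, gave 15 changed sites in place of 12. DESeq2 kept 15 of the 17 combined calls. For the fits that left out a library, the replicate block over all groups and DESeq2, shares over all sites are not given. Their counts therefore have no background beside them. At the 16 distal sites under 1 CPM in Control, depth limits what can be detected.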
